A study of Mus musculus with 12 samples.

Results

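The GDNF-RET and endothelin signalling genes described here are Ret, Gfra1, Gfra2, Gfra3, Gdnf, Nrtn, Artn, Ednrb, Edn3 and Ece1, chosen by symbol. They are 10 of the 27179 genes in the expression table, and each symbol matched a single entry. Their RNA was measured by sequencing of full-thickness mouse colon in 12 libraries, 5 from control and 7 from ablated mice. Control mice had the genotype R26-iDTR and were Cre-negative littermates, so they carried the diphtheria toxin receptor construct in its silent form. Ablated mice had the genotype BAF53b-Cre::R26-iDTR, in which the promoter of the neuronal gene BAF53b (Actl6b) drives Cre and Cre switches the receptor on. Mice of both genotypes underwent laparotomy and were given 4 µL of diphtheria toxin at 0.33 ng/µL with 10% India ink, injected into the muscularis propria of the colon, and the inked tissue was collected. The title places the study in the return of enteric neurons after birth and the part that glia have in it. Age, sex, the time from toxin to tissue collection and whether each library came from its own animal are not given in the sources used here, so p-values speak for library-to-library spread, which may be technical.

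RET is a receptor tyrosine kinase that binds its ligands only together with a GFRα co-receptor on the cell surface. GDNF acts mainly through GFRα1, neurturin (Nrtn) through GFRα2 and artemin (Artn) through GFRα3. In the gut the ligands are made by cells of the wall, while enteric neurons and their precursors carry RET. In parallel, endothelin converting enzyme 1 (Ece1) cuts the precursor of endothelin 3 (Edn3), which acts on endothelin receptor B (Ednrb) of neural crest-derived cells. Loss-of-function mutations in RET, EDNRB or EDN3 cause Hirschsprung disease, in which the distal bowel lacks enteric ganglia.

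Levels are given in TPM, a count scaled by transcript length and by the total of its library, at a depth of 13.4 to 26.9 M recovered reads per library. Among 11 enteric neuron markers, limma called 10 lower in ablated colon and voom on recovered reads called all 11. The median log2 difference of the list was -2.07. The summed level of the 11 was 93.3 to 219 TPM in control and 23.0 to 45.6 TPM in ablated libraries. None of 10 enteric glia markers passed the limma test, although 9 of the 10 log2 differences were negative (median -0.42). At an unadjusted p under 0.05, 4 of the 10 were lower, against 4.75% of all genes. Of the 10, 2 were called by voom on recovered reads. Summed markers of epithelium (10105 to 12569 TPM in control, 8272 to 15259 in ablated) and of smooth muscle (6681 to 10415 in control, 6893 to 22993 in ablated) were present in every library. Of 46 tested genes in these and 5 other lists of wall and immune cell types, limma and voom called none, with medians from -0.10 to 0.27. An unadjusted p under 0.05 was found for 4 of the 46, against 11.8% of all genes. On the first principal component (40.05% of variance) ablated 1 lay farthest out at 85.2 and ablated 6 at 44.5, ablated 4, ablated 5 and ablated 7 lay at the other end at -41.0, -40.0 and -45.9, and the controls lay between -20.9 and 15.2. The mitochondrial share of expression was 18.7% in ablated 1 and 3.56 to 10.4% in the others. The epithelial score, the mean of centred log2 values of 7 epithelial genes, was lowest at -0.55 in ablated 1 and -0.42 in ablated 6.

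Ret was the 1 member called, and it was lower in ablated colon. All 10 genes passed the minimum of 0.5 TPM in at least 5 libraries, and 1 of them, Ret, had an adjusted p under 0.05 in limma, against a background of 1.43% of 16164 genes tested in either direction and 1.01% lower in ablated colon. The count of 231 genes behind that background was 128 without control 2 and 137 without control 3. No member was called higher by voom, or by limma at an adjusted p under 0.05, where the limma background was 0.421%. None was higher at an unadjusted p under 0.05 either. At an unadjusted p under 0.05 stood Ret, Gfra1 and Gfra2, 3 of 10 against 11.8% of all genes, and all 3 were lower, against 4.75%. Groups without overlap occurred in 1 of the 10 members, Ret, against 2.88% of all genes, or 1.55% lower and 1.33% higher in ablated colon. The median log2 difference was -0.08 over the 10 members and 0.03 over all genes tested.

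**Figure D1:**
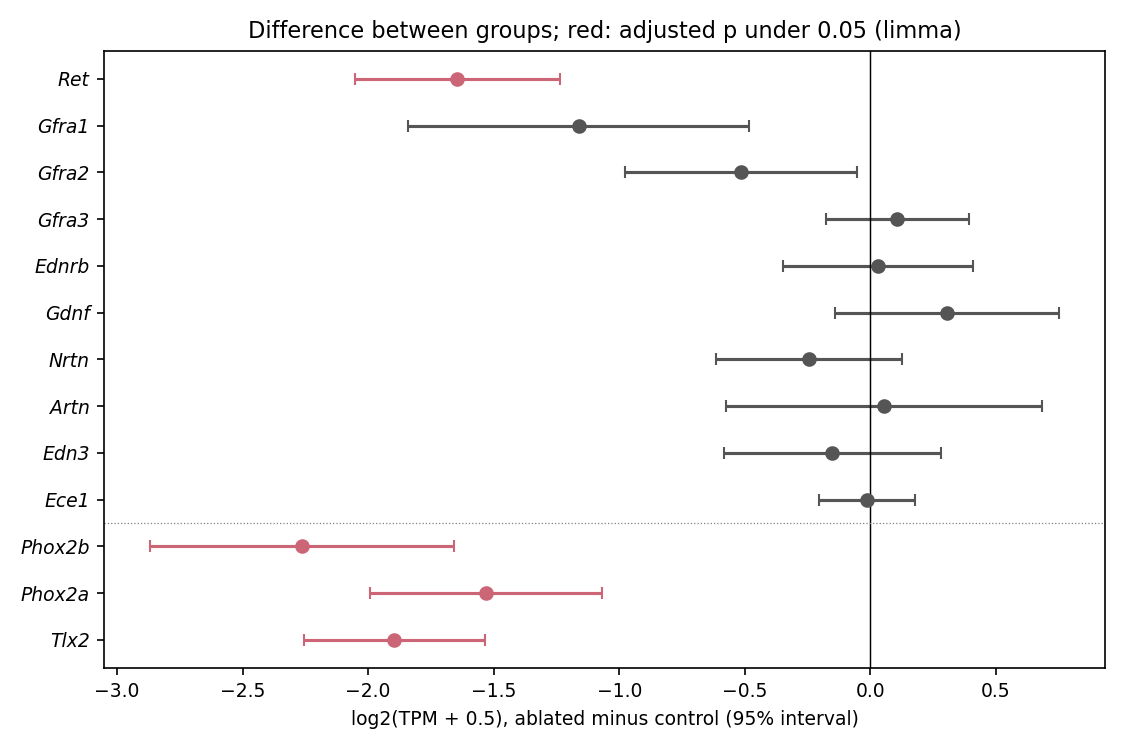
Difference between ablated (n = 7) and control (n = 5) colon for each member on the log2(TPM + 0.5) scale, with points for the limma estimate and bars for its 95% interval. Ret lies farthest below 0 at -1.65, Gfra1 and Gfra2 have intervals below 0, and the intervals of the other 7 genes span 0.

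Among the receptors, Ret (chromosome 6, 118151745 to 118197718, minus strand, mm10) measured 2.41, 4.70, 3.75, 2.30 and 3.29 TPM in control 1 to 5. In the ablated libraries its lowest, median and highest levels were 0.399, 0.632 and 1.01 TPM. The highest ablated library therefore lay below the lowest control, and the groups did not overlap. Mean Ret was 3.29 ± 0.992 TPM (SD, n = 5) in control and 0.694 ± 0.204 TPM (SD, n = 7) in ablated colon, a 4.74-fold difference that left 21.1% of the control level. The limma difference was -1.65 on the log2(TPM + 0.5) scale (SE 0.19, 95% interval -2.05 to -1.24, adjusted p = 0.000591). This scale understates the change of genes at low levels. The exact two-sided permutation test over all 792 assignments gave p = 0.00126, the smallest it can give. Leaving out each library in turn gave -1.75 to -1.52, with Ret called each time. Fewer cells with Ret RNA and less Ret RNA per cell cannot be told apart in whole tissue. In the authors' deposited table, Ret had a log2 fold change of -2.30 and a false discovery rate of 0.000181, and no other member had one under 0.05. In the authors' deposited table such rates were given to 1.13% of 27179 genes, 0.916% lower in ablated colon.

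The level that Ret kept, 21.1% of control, lay inside the range of the enteric neuron markers. These ran from 3.98% for Chrna3, a nicotinic acetylcholine receptor subunit, to 37.3% for Elavl3, a neuronal RNA-binding protein gene. Elavl3 was the marker that limma did not call (adjusted p = 0.0988), while voom called all 11 markers. Relative to Uchl1, an abundant neuronal ubiquitin hydrolase, Ret was 0.0687 to 0.119 in control and 0.0650 to 0.149 in ablated libraries, so this ratio overlapped. Relative to the neuronal RNA-binding protein gene Elavl4, Ret was 0.879 to 1.14 in control and 0.631 to 5.76 in ablated libraries (medians 1.09 and 2.27). Ablated 1 gave the 0.631, and every other ablated library lay above the highest control, from 1.60 upward. The ratio of 5.76 came from ablated 7, where Ret measured 0.632 TPM and Elavl4 lay well below that, so it rests on a low denominator. Uchl1 and Elavl4 were called lower themselves, and these ratios of TPM were not tested.

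**Figure D2:**
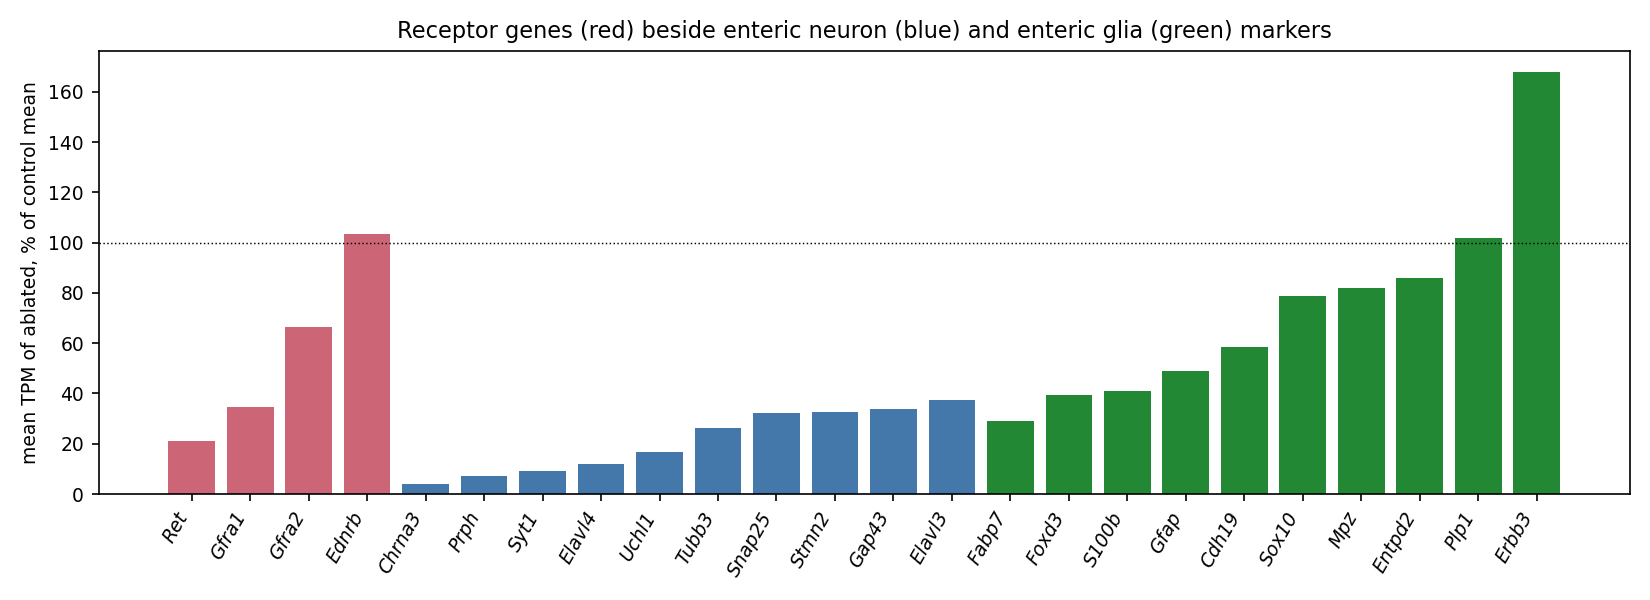
Mean TPM of ablated colon (n = 7) as a percentage of mean TPM of control colon (n = 5), for 4 receptor genes, 10 of the 11 enteric neuron markers and the enteric glia markers, with a dotted line at equal means. Ret at 21.1% lies within the range of the neuron markers, 3.98% to 37.3%, as does Gfra1 at 34.4%. The glia markers run from 29% for Fabp7 to 168% for Erbb3, the 1 of 10 with a positive log2 difference (9 were negative). Gfra1, Gfra2 and Ednrb lie within this wide range, which spans equal means and so does not assign them to glia.

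Gfra1, which encodes the main GDNF co-receptor (chromosome 19, 58235604 to 58455909, minus strand), measured 0.970, 2.50, 2.15, 2.64 and 2.20 TPM in control 1 to 5. Its lowest, median and highest ablated levels were 0.080, 0.541 and 1.55 TPM. All but 2 of the 7 ablated libraries lay below control 1, the lowest control, and those 2, ablated 3 and ablated 5, overlapped the control range. The difference of -1.16 (log2 scale, 95% interval -1.84 to -0.48) did not pass in limma, with an adjusted p of 0.109, and the exact two-sided permutation p was 0.0101. The ablated libraries spanned a 19.3-fold range, and the lowest value rests on 2 recovered reads in ablated 1. Gfra1 was called when the fit included a weight per library (-0.96, adjusted p = 0.0380), the epithelial score (-1.27, adjusted p = 0.0130) or the mitochondrial share (-1.18, adjusted p = 0.0145). These fits called more of all genes as well, 1092, 855 and 716 against 231 in the main fit. Its exons overlap those of the antisense gene Gm16277, and whether reads were counted by strand is not stated, so reads of the pair may not be separated.

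Gfra2, the neurturin co-receptor gene (chromosome 14, 70890120 to 70979838, plus strand), measured 3.18, 2.39, 2.58, 2.35 and 1.86 TPM in the controls. Its ablated levels were 1.03, 1.42 and 2.75 TPM at the lowest, median and highest. Ablated 2 and ablated 3 lay within the control range and the other 5 below it. The difference of -0.52 (95% interval -0.98 to -0.05) was not called in limma (adjusted p = 0.351), and the exact permutation p was 0.0455.

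Gfra3, the artemin co-receptor gene on chromosome 18, measured 1.63, 1.65, 1.80, 2.04 and 2.15 TPM in the controls. In ablated colon the lowest, median and highest levels were 1.68, 1.96 and 2.37 TPM, and every ablated library exceeded the lowest control. The groups overlapped, and the log2 difference was 0.11 (95% interval -0.18 to 0.39, limma adjusted p = 0.857). The interval of Gfra3 therefore reaches no lower than -0.18, while that of Ret reaches no higher than -1.24.

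**Figure D3:**
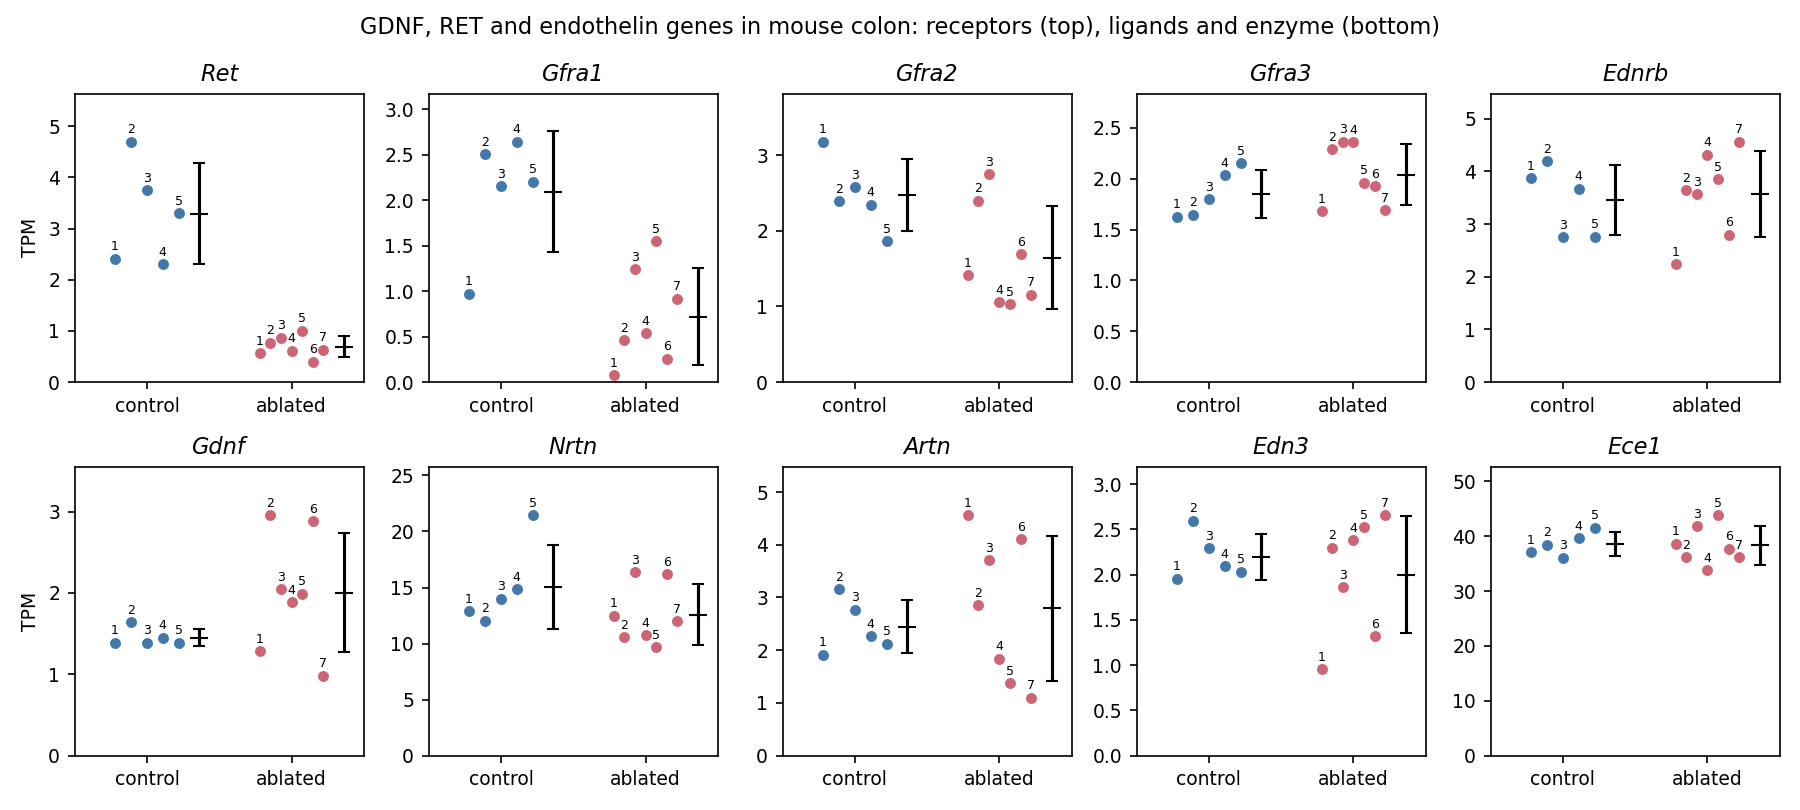
TPM of the 10 members in each library, with a numbered point for each control (n = 5) and ablated (n = 7) library and bars for the mean ± SD. Ret separates the groups, Gfra1 and Gfra2 overlap with most ablated libraries low, and Gdnf, Artn and Edn3 spread more widely among ablated than control libraries.

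The ligands and Ece1 were not called. None of these 5 genes had an adjusted or an unadjusted p under 0.05 in limma or by voom on recovered reads, and the lowest adjusted limma p was 0.645. Gdnf (chromosome 15, 7810846 to 7837575, plus strand) measured 1.39, 1.64, 1.39, 1.45 and 1.39 TPM in the controls. Among the ablated libraries its lowest, median and highest levels were 0.982, 1.99 and 2.96 TPM. Ablated 1 and ablated 7 lay below all controls and the other 5 above all controls, so the control range fell inside a wider ablated range. The SD was 0.108 TPM in control and 0.736 TPM in ablated colon, and the log2 difference was 0.31 (95% interval -0.14 to 0.75). The 2 highest libraries, ablated 2 and ablated 6, also had the highest smooth muscle scores (0.58 and 0.93, a mean of centred log2 values), and with that score in the fit the Gdnf difference was 0.18.

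Nrtn (chromosome 17, 56751325 to 56757530, minus strand) had the highest level of the 3 GDNF family ligands in both groups. Its controls measured 12.9, 12.04, 14.0, 14.9 and 21.5 TPM, and its ablated libraries 9.67, 12.03 and 16.4 TPM at the lowest, median and highest. Control 5 stood above every other library. The log2 difference was -0.25 (95% interval -0.62 to 0.12, limma adjusted p = 0.654), and -0.11 without control 5. Artn (chromosome 4, 117926162 to 117929763, minus strand), whose product signals through GFRα3, measured 1.92, 3.15, 2.77, 2.27 and 2.12 TPM in the controls. Its ablated levels were 1.10, 2.86 and 4.56 TPM at the lowest, median and highest. Ablated 1, ablated 3 and ablated 6 exceeded all controls, and ablated 4, ablated 5 and ablated 7 lay below all controls, with a log2 difference of 0.05 (95% interval -0.58 to 0.68).

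Setting ligand beside receptor within each library, Gdnf was 0.349 to 0.632 of Ret in control and 1.55 to 7.22 of Ret in ablated libraries. These TPM ratios did not overlap, with medians of 0.421 and 2.35. The ratio includes the fall of Ret and was given no test of its own. Mean Gdnf in ablated colon was 138% of control, a difference that was not called, and its part in the ratio was not tested. The co-receptor Gfra1 had median ratios to Ret of 0.574 in control and 0.876 in ablated libraries, with overlap. The ratio of Gdnf to Gfra1 had medians of 0.646 in control and 3.49 in ablated libraries and overlapped. The ratio of Nrtn to Gfra2 (medians 5.44 and 9.37) and that of Artn to Gfra3 (medians 1.18 and 1.25) also overlapped. For the endothelin pair, Edn3 over Ednrb had medians of 0.618 and 0.552, again with overlap.

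**Figure D4:**
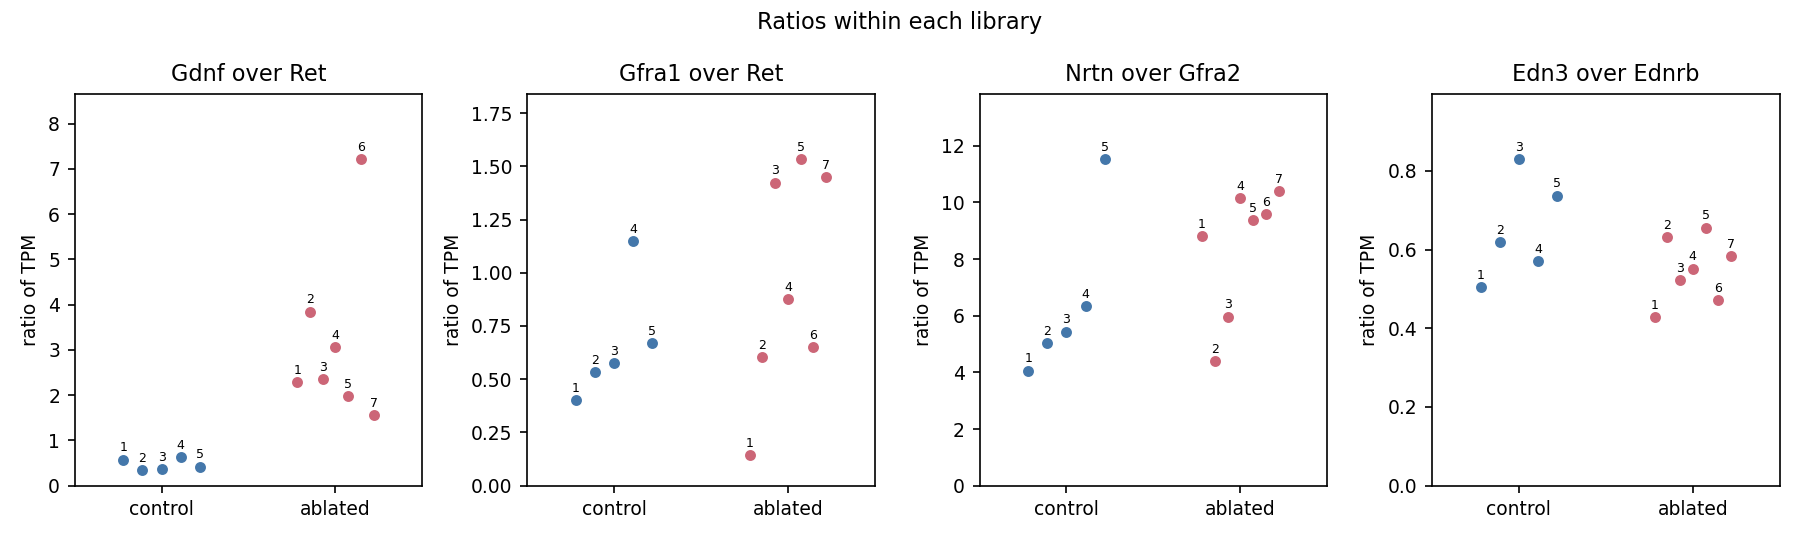
Ratio of TPM between 2 members in each numbered control (n = 5) and ablated (n = 7) library, for 3 ligand and receptor pairs and for Gfra1 over Ret, on linear axes that start at 0. The groups are apart for Gdnf over Ret (0.349 to 0.632 against 1.55 to 7.22) and overlap for the other pairs.

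Ednrb, the endothelin receptor gene carried by enteric precursors and glia, measured 3.87, 4.20, 2.76, 3.67 and 2.76 TPM in the controls. Its ablated levels were 2.24, 3.64 and 4.56 TPM at the lowest, median and highest. Ablated 1 was the lowest of all libraries and ablated 7 the highest, so the ablated range enclosed the control range. The log2 difference was 0.03 (95% interval -0.35 to 0.41, limma adjusted p = 0.978). Edn3, the ligand gene, measured 1.95, 2.59, 2.29, 2.10 and 2.03 TPM in the controls and 0.958, 2.30 and 2.66 TPM at the lowest, median and highest in ablated libraries. Ablated 1 and ablated 6 were the lowest 2 of all 12 libraries, ablated 3 also lay below every control, and the log2 difference was -0.15 (95% interval -0.58 to 0.28, limma adjusted p = 0.874). Ece1 (chromosome 4, 137862237 to 137965229, plus strand), the processing enzyme gene, had the highest level of the 10 members in both groups. It measured 37.1, 38.4, 36.1, 39.7 and 41.6 TPM in the controls and 33.8, 37.7 and 43.8 TPM at the lowest, median and highest in ablated libraries. The Ece1 difference of -0.01 had the narrowest interval of the members (-0.20 to 0.18).

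Within the 7 ablated libraries Ednrb and Edn3 varied with the epithelial score. The score ran from -0.55 in ablated 1 to 0.50 in ablated 7, and from -0.23 to 0.17 in the controls. Pearson r was 0.958 for Ednrb (exact permutation p = 0.000595, adjusted over 16163 genes 0.00825, Spearman rho 0.964, exact permutation p = 0.00278). It was 0.925 for Edn3 (exact permutation p = 0.00516, adjusted 0.0223, rho 0.929, exact permutation p = 0.00675). Artn ran the other way, with r = -0.893 (exact permutation p = 0.0109, adjusted 0.0363, rho -0.929, exact permutation p = 0.00675). Without ablated 1 and ablated 6, the 2 libraries farthest from the median score, r was 0.845 for Ednrb, -0.833 for Artn and 0.599 for Edn3. For Gfra1, r was 0.811 (exact permutation p = 0.0315, adjusted 0.0765, rho 0.714, exact permutation p = 0.0881) and 0.349 without them. Of the 10 relations 3 had an adjusted p under 0.05, against 34.7% of all genes, and the same 3 had r of at least 0.85 in either direction, against 32.5%, so a share of this size is the background and not particular to these genes. The mitochondrial share ran against the score, at 18.7% in ablated 1, 10.4% in ablated 6 and 3.56% in ablated 7, and its part in these relations was not tested. No relation was computed within the controls. There control 2 and control 3 had the lowest scores (-0.23 each) and the highest Edn3 (2.59 and 2.29 TPM). Ednrb was the highest of the controls in control 2 and the lowest in control 3 (4.20 and 2.76 TPM).

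**Figure D5:**
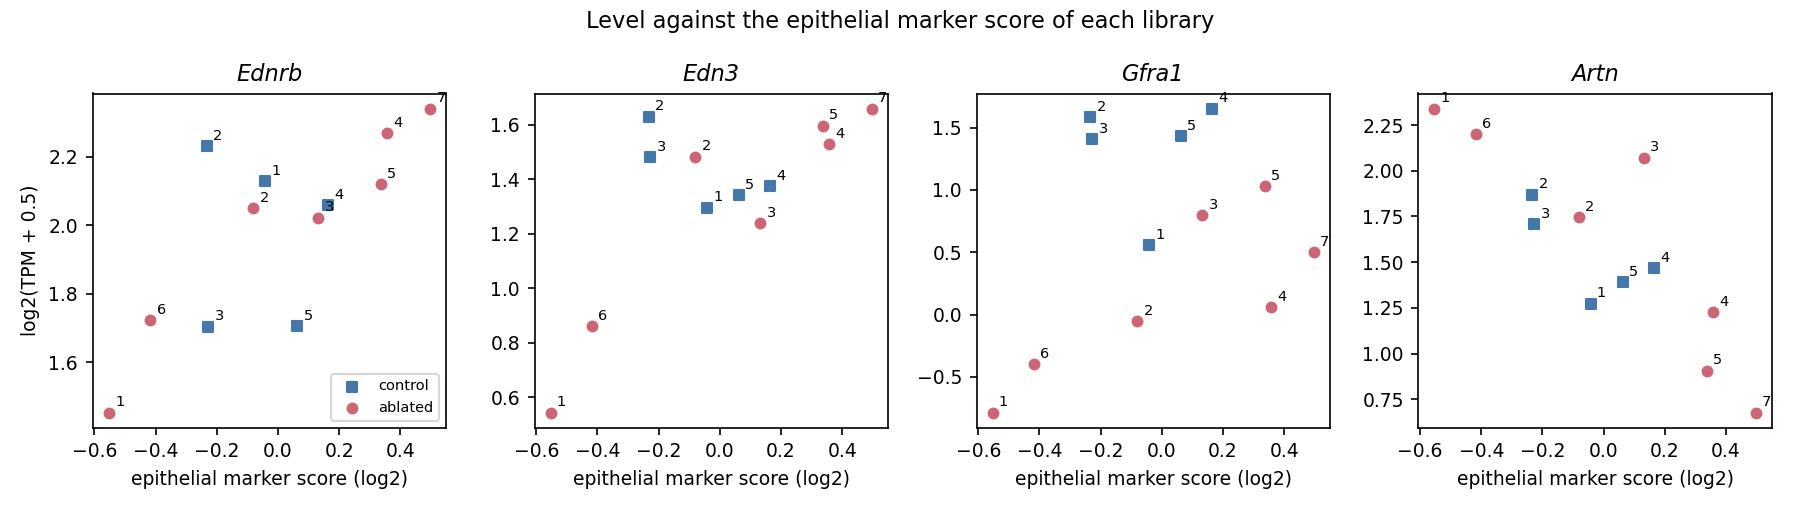
Levels of Ednrb, Edn3, Gfra1 and Artn on the log2(TPM + 0.5) scale against the epithelial score (mean centred log2 value of 7 epithelial genes) in each numbered control (n = 5) and ablated (n = 7) library. Among ablated libraries Ednrb and Edn3 are lowest and Artn highest in ablated 1, where the score is -0.55, and Ednrb and Edn3 are highest in ablated 7, where it is 0.50.

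The sequences directly before the RefSeq starts of the endothelin ligand and receptor genes are shown as a description. Whether Ednrb and Edn3 are regulated together was not tested. They are 250 bases each, from RefSeq on GRCm38.p6, printed 5′ to 3′ on the gene's strand. Capitals mark the letters TAAT or, on the other strand, ATTA, the core recognised by many homeodomain proteins. The Ednrb sequence lies at chr14:103843702-103843951 on the minus strand and the Edn3 sequence at chr2:174760369-174760618 on the plus strand. In GENCODE the Ednrb gene extends farther upstream (chromosome 14, 103814625 to 103844402), so its window lies inside the gene by that annotation, where it overlaps no annotated exon.
Ednrb: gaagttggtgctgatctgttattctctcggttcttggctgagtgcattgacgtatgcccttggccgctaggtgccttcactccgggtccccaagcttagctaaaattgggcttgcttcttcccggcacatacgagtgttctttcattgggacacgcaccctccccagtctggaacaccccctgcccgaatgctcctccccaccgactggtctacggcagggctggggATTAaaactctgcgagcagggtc
Edn3: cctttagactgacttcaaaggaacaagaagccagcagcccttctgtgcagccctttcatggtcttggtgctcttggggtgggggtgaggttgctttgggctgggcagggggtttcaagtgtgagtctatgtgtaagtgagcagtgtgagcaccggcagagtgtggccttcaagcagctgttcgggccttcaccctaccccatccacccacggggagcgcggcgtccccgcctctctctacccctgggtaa
The Ednrb window holds 1 match and the Edn3 window none. Among the other ligand genes, the windows of Artn and Nrtn hold none, and those before the 2 annotated starts of Gdnf hold 2 and 1. The same letters occur in 54.9% of 32851 windows of this length, so a match describes the window and nothing more.

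In control colon the members ranked from Ece1 through Nrtn, Ednrb, Ret, Gfra2, Artn, Edn3, Gfra1 and Gfra3 to Gdnf by mean TPM. Only the first 2 steps, from Ece1 to Nrtn and from Nrtn to Ednrb, separated neighbours whose libraries did not overlap. In ablated colon Ret moved from rank 4 to rank 10, behind Ece1, Nrtn, Ednrb, Artn, Gfra3, Gdnf, Edn3, Gfra2 and Gfra1. There too only the first 2 steps separated neighbours without overlap. Genes farther apart in that order could still separate, as the lowest ablated library of Ednrb (2.24 TPM) and that of Gfra3 (1.68 TPM) lay above the highest of Ret (1.01 TPM) and of Gfra1 (1.55 TPM).

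The rest of the pathway was examined in 5 lists holding 77 genes, and 3 of the 70 tested were called, all lower, against 1.43% of all genes in either direction and 1.01% lower. All 3 belong to the list of other Hirschsprung disease and enteric progenitor genes, where 3 of 17 tested fell and limma and voom called none higher, with a median log2 difference of 0.04. In this list 9 of the 17 differences were positive, and at an unadjusted limma p under 0.05 there were 4 lower and 2 higher. The background for such counts, here and in the other lists below, was 11.8% of all genes in either direction and 4.75% lower. Tlx2, a homeobox gene of enteric neurons, went from 1.61 ± 0.396 TPM (SD, n = 5) to 0.0621 ± 0.0723 TPM (SD, n = 7), a log2 difference of -1.90 (limma adjusted p = 7.6e-05). Phox2a, another homeobox gene of the list, went from 1.60 ± 0.686 to 0.206 ± 0.117 TPM (-1.53, limma adjusted p = 0.00224). Sox10, the transcription factor gene of enteric precursors and glia in the same list, averaged 2.65 TPM in control and 2.08 TPM in ablated colon and did not pass (-0.28, limma adjusted p = 0.644). Over all 5 lists together, the count of 3 called was 5 without ablated 1, with 4 lower and 1 higher.

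The lists downstream of the receptors held no gene called in the unweighted comparison. Among 21 tested RET adaptors and effectors, limma and voom called none, 3 had an unadjusted limma p under 0.05 and the median log2 difference was 0.08. Those with the smallest p were the adaptor genes Dok5 (0.636 TPM in control, 0.322 in ablated, limma adjusted p = 0.337) and Shc1 (36.4 and 42.6 TPM, limma adjusted p = 0.397). Among 14 genes of feedback and turnover, neither tool called any and 1 had an unadjusted limma p under 0.05, with a median of 0.11. That gene, Etv1, an ETS factor gene that also marks interstitial cells of Cajal, averaged 3.23 and 1.998 TPM in groups that did not overlap, as for 1.55% of all genes in this direction (-0.55, limma adjusted p = 0.172). With a weight per library Etv1 was called (-0.60, limma adjusted p = 0.0475), in a fit that called 1092 of all genes against 231 in the main fit. The other named gene of this list was Spry2, an inhibitor of receptor tyrosine kinase signalling, at 37.5 and 43.0 TPM (limma adjusted p = 0.716).

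Beside the ligands and receptors themselves, 7 other GDNF family genes were tested, with no call by limma or voom, 2 at an unadjusted limma p under 0.05 and a median of -0.24. These 2 were Gas1, a surface protein related to the GFRα family, at 36.0 and 19.9 TPM (-1.01, limma adjusted p = 0.280), and Gfra4, the persephin co-receptor gene, at 9.25 and 6.45 TPM (-0.55, limma adjusted p = 0.357). Gas1 was called with a weight per library (-0.77, limma adjusted p = 0.0304) and with the mitochondrial share in the fit (-1.03, limma adjusted p = 0.0312). It was also called without ablated 1 (-0.68, limma adjusted p = 0.0434). These fits called 1092, 716 and 328 of all genes, against 231 in the main fit. Without ablated 1 and ablated 6, Gas1 was -0.63 and not called. Among 11 tested genes of the wider endothelin system, neither tool called any and 1 had an unadjusted limma p under 0.05, with a median of 0.12. They included Gna11, a G protein subunit gene, at 116 and 148 TPM (limma adjusted p = 0.308) and Edn1, which encodes endothelin 1, at 27.6 and 38.0 TPM (limma adjusted p = 0.540).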

How the data were processed

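The authors deposited TPM per gene, as 12 per-sample files and a table. Per the submitters' processing notes, bcl2fastq 2.17, HISAT, featureCounts and mm10 were used; per the labels, libraries were polyadenylated and stranded. The TPM formula and strand setting are not given in the sources used here. The authors' deposited comparison holds log2 fold changes, p-values, false discovery rates and the F statistic, a score.

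Because values were TPM, no count model was the main test. Genes reaching 0.5 TPM in 5 or more libraries were fitted on log2(TPM + 0.5) with limma 3.58.1 (R 4.3.3, trended eBayes, two-sided), with Benjamini-Hochberg adjustment over 16164 genes and a threshold of 0.05. The fit was also run on simulated data with 200 genes changed. The outcome is not given here, so that run does not vouch for the fit on these libraries. Whole reads were recovered from TPM for 22840 of 22842 genes above 0, within 0.05 read. Permutations, correlations and figures used Python 3.11.15, SciPy 1.17.1 and matplotlib 3.10.9. Positions came from GENCODE on mm10.

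The members and gene lists were chosen with earlier results of these data known. Named genes are the members; up to 4 called genes of each pathway list, or the 2 with the smallest p; and, for Ret, Ednrb, Gdnf and Edn3, the 3 genes with the most similar centred log2 values. Sox10 and the markers named beside Ret were added after their values were seen. A result that these rules name is not reported here. Alternatives changed the added constant, minimum, scaling, variance model, covariates and libraries.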

Additional observations from a re-analysis of the deposited data

Results flagged for a closer look

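Gdnf in control 2 stood apart from the other controls. Its level was 1.64 TPM against 1.39 to 1.45 TPM in the other 4, and the gap to the nearest control was 0.740 of the range of the group. This was the 1 group with such a library among 20 groups examined, 10 genes in control and in ablated colon, and chance gives about 1 in 20.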

How the results depend on the processing

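Ret was called under all 27 alternatives, with differences of -2.28 to -1.32 (adjusted p 0.0003 to 0.0217). The number of all genes called, 231, was 349 with no minimum, 1092 with a weight per library, 84 with the replicate block, 855 with the epithelial score and 716 with the mitochondrial share as covariates, and 128 to 328 without each library in turn. Members called were 2, Ret and Gfra1, with the weight (Gfra1 -0.96), the epithelial score (-1.27) and the mitochondrial share (-1.18), and 1 without each library in turn. Pathway genes called were 1 at a minimum of 1 TPM, 9 with the weight, 6 with the mitochondrial share, 5 without ablated 1 and ablated 6 together (an alternative chosen after seeing the data) and 3 to 5 without each library in turn. Some uncalled members changed sign near 0. Artn was -0.27 with the weight, -0.050 by voom, -0.22 without ablated 1 and ablated 6, and -0.070 to 0.21 without each library. Edn3 was 0.052 with the weight and 0.076 without ablated 1 and ablated 6. Ednrb was -0.030 with the epithelial score, and -0.035 to 0.12 without each library. Ece1 was 0.0056 with the replicate block, and -0.046 to 0.015 without each library. The share of calls higher in ablated colon was 29.4%, 59.9% with the weight and 17.9% with the block. The cause of these changes was not tested. Same-numbered libraries correlated at -0.269 to 0.359, and 1 of 5 correlated best with its own number. Such correlations cannot exclude that equal numbers share a batch, and the main fit treated the libraries as unpaired. With the replicate block Phox2a had an adjusted p of 0.0521. At the depth reached, Gfra1 rested on 2 to 108 reads per library and Ret on 32 to 462.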

Other observations

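Genes whose centred log2 values followed a member most closely over the 12 libraries were picked by their root mean square difference from it. The difference between groups was left in these values, so a match to Ret includes a similar group difference. Similarity within the groups was not tested. For Ret these were Syngr3, a synaptic vesicle protein gene, at 0.179, Gpr37l1, an orphan receptor gene, at 0.181, and Tmem179 at 0.184, beside a root mean square of 0.858 for Ret about its own mean. Mean levels in control and ablated colon were 3.30 and 0.876 TPM for Syngr3, 2.83 and 0.669 TPM for Gpr37l1 and 1.93 and 0.164 TPM for Tmem179. For Ednrb the closest were Polr3k, Rad17 and Nqo2, at 0.109 to 0.111 beside 0.263 for Ednrb itself. For Edn3 they were St7l, Eapp and Chchd3, at 0.116 to 0.130 beside 0.317. For Gdnf they were Ccdc60, Pcdhb17 and Pkd2, at 0.132 to 0.161 beside 0.353.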
